A study of Mus musculus with 33 samples.

Results

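The genes described here encode the receptors for the common gamma chain cytokines. They were chosen by name, as the shared chain Il2rg and the chains that pair with it for IL-2, IL-4, IL-7, IL-9, IL-15 and IL-21, namely Il2ra, Il2rb, Il4ra, Il7r, Il9r, Il15ra and Il21r. These are 8 genes among the 31054 features counted in each library, and all 8 were among the 25347 genes with 1 CPM (read pairs scaled to a common library total) or more in any library. Bulk RNA-Seq was made from 11 sorted subsets of mouse immune cells with 3 libraries each, 1000 cells per library, each library a pool of several mice. All mice were DEREG mice on a C57BL/6 background, which carry a transgene for the diphtheria toxin receptor and EGFP under the Foxp3 promoter, so that CD4+Foxp3+ regulatory T cells (Tregs) could be sorted as CD4+GFP+ cells.

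Tolerant mice had been given 4000 islet equivalents (IEQ) of porcine neonatal islet cell clusters under the renal capsule, together with repeated doses of MR-1, an antibody against CD154, and a single dose of CTLA4-Fc, with 500 µg per mouse in each dose, and their cells were sorted at day 100. Naive mice had no transplant and no treatment. From the spleen (SP) came CD45+CD4- cells, CD4+Foxp3- T cells (here CD4+) and Tregs of naive mice, and CD45+CD4- cells, CD4+Foxp3- T cells, CD127hi Tregs and CD127-/lo Tregs (here CD127lo) of tolerant mice. From the lymph node draining the kidney (DLN) came naive Tregs and the CD127hi and CD127lo Tregs of tolerant mice, and from the graft came unfractionated Tregs of tolerant mice. CD127 is the protein product of Il7r, so the CD127hi and CD127lo subsets were gated on a member of the family. The age of the mice is not given in the sources used here.

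Each of these cytokines binds a private chain and the common gamma chain. IL-2 and IL-15 also bind a chain that they share, the product of Il2rb. JAK1 sits on the private chain, or for IL-2 and IL-15 on the shared Il2rb product, and JAK3 on the common chain. Together these kinases phosphorylate STAT proteins, mainly STAT5 for IL-2, IL-7, IL-9 and IL-15, STAT6 for IL-4 and STAT3 for IL-21. Tregs are known for high CD25, the product of Il2ra, and for low CD127, and they depend on IL-2 that other T cells make. Memory T cells are known for high CD127 and for survival on IL-7 and IL-15.

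The 24 spleen and graft libraries, run on a NextSeq 500, held 2550698 to 4615283 read pairs on genes, and the 9 DLN libraries, run on a MiSeq, held 844039 to 1935323. The limit that a count of 0 allows, 3 counts, equalled 0.637 to 1.18 CPM in the former and 1.64 to 3.11 CPM in the latter, by counting error alone. DLN and sequencer cannot be told apart. Foxp3, which encodes the factor that defines Tregs, lay between 166 and 672 CPM in the 21 Treg libraries and between 0 and 8.20 CPM in the 12 others. The summed CPM of 6 B cell genes was 0.54 to 96.1 in the spleen and graft T cell libraries, 11.2 to 564 in the DLN and 2980 to 6637 in CD45+CD4- cells. Naive DLN mice were female and the other mice male by the study's account, but Xist was at 405, 459 and 1.24 CPM and Ddx3y, a Y-linked gene, at 2.84, 16.1 and 139 CPM in DLN/naive Treg replicates 1, 2 and 3, so that replicate 3 went against that account. In bulk samples such as these, fewer cells that express a gene and less RNA of it per cell cannot be told apart.

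Per kilobase of exon, Il2rg and Il7r together made up most of the summed level of the 8 receptor genes in each subset, on average. The sum of the 8 genes was lowest in SP/tolerant CD45+CD4- cells, at 246 ± 12.6 CPM per kb (SD, n = 3), and highest in SP/tolerant CD4+ T cells, at 676 ± 140 CPM per kb (SD, n = 3). Il2rg took 26.0% ± 6.9 of that sum in SP/CD127hi Tregs and 49.6% ± 4.7 in SP/CD127lo Tregs (SD, n = 3). Il7r, the reverse, took 42.2% ± 3.3 and 12.8% ± 1.8 (SD, n = 3) in the same subsets. The share of Il2ra was 0.0199% ± 0.0111 in SP/naive CD4+ T cells, against 8.40% ± 0.87 in graft Tregs and 17.1% ± 3.1 in SP/CD127lo Tregs (SD, n = 3).

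**Figure D1:**
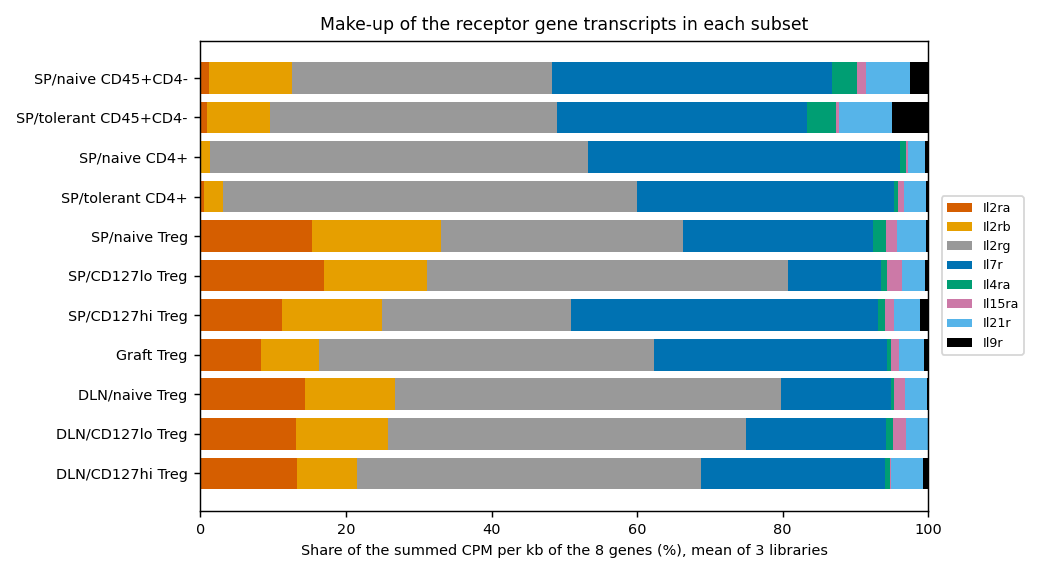
Share of each of the 8 genes in their summed CPM per kb of exon (%, horizontal axis) for the 11 subsets (rows), as means of 3 libraries. Il2ra is 0.0199% of the bar of SP/naive CD4+ T cells and 17.1% of that of SP/CD127lo Tregs, and Il7r is 12.8% in SP/CD127lo and 42.2% in SP/CD127hi Tregs.

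Il2ra (ENSMUSG00000026770; GRCm38 chr2:11642807-11693193, plus strand) encodes CD25, the chain that raises the affinity for IL-2 without signalling itself. It parted Tregs from all other subsets. In the 21 Treg libraries of all tissues it lay between 237 and 686 CPM, and in the 12 other libraries between 0.32 and 52.8 CPM, so that the lowest Treg library was above the highest other library. SP/naive CD4+ T cells had 1.31, 0.32 and 0.39 CPM, which were 4, 1 and 1 read pairs, the lowest of all subsets. SP/tolerant CD4+ T cells had 18.9, 23.7 and 16.2 CPM, all above the naive CD4+ libraries. CD45+CD4- cells of tolerant mice had 13, 12.9 and 10.9 CPM, and those of naive mice spread widely, with 8.55, 52.8 and 0.97 CPM.

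Among Tregs, the order of mean Il2ra was SP/CD127lo, DLN/naive, DLN/CD127lo, DLN/CD127hi, SP/naive, SP/CD127hi and graft Tregs, and the libraries of each subset overlapped those of the next. SP/CD127lo Tregs had 528, 390.0 and 609 CPM of Il2ra, SP/CD127hi Tregs 443, 319 and 395 CPM and SP/naive Tregs 444, 285 and 466 CPM. Graft Tregs had 326, 237 and 262 CPM, below every SP/CD127lo library and overlapping the other spleen subsets. In the DLN, Il2ra was at 418, 686 and 379 CPM in naive, 412, 401 and 539 CPM in CD127lo and 336, 301 and 572 CPM in CD127hi Tregs, with the 3 subsets overlapping.

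Il7r (ENSMUSG00000003882; GRCm38 chr15:9505788-9530176, minus strand) encodes CD127, which forms the IL-7 receptor with the common chain and the TSLP receptor with the product of Crlf2. Its highest levels were in SP/CD127hi Tregs, with 1236, 1082 and 1198 CPM, and in CD4+Foxp3- T cells, with 1237, 916 and 1029 CPM in naive and 1350.4, 876 and 1105 CPM in tolerant mice. These 3 subsets overlapped one another. SP/naive Tregs had 627, 581 and 422 CPM of Il7r and SP/CD127lo Tregs 270, 303 and 360 CPM, with every CD127lo library below every naive library.

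Graft Tregs, which were not gated on CD127, had 1165, 694 and 739 CPM of Il7r. All 3 graft libraries were above the SP/naive and SP/CD127lo libraries, and 1 of them reached the range of SP/CD127hi Tregs. In the DLN, Il7r was at 635, 476 and 678 CPM in CD127hi Tregs and at 265, 784 and 516 CPM in CD127lo Tregs, so that the 2 gates overlapped in transcript. DLN/naive Tregs had 202, 788 and 348 CPM. CD45+CD4- cells had 354, 550 and 706 CPM in naive and 332, 413 and 434 CPM in tolerant mice, which also overlapped.

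The promoters of Il2ra and Il7r are shown because Il2ra had the widest range of subset means and Il7r encodes the protein that was sorted on. They are the 250 bases before the start of each gene in RefSeq (GRCm38.p6), 5′ to 3′ on the strand of the gene, at chr2:11642542-11642791 (plus strand) and chr15:9529877-9530126 (minus strand). The Il7r window lies inside the span given above for Il7r, which starts further upstream, so its positions hold for the RefSeq start only. Capitals mark matches to the letters searched.
Il2ra: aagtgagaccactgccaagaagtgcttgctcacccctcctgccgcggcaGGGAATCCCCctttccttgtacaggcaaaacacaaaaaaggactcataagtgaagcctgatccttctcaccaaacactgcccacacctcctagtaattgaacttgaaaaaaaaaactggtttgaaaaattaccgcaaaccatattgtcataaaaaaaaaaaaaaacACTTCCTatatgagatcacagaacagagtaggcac
Il7r: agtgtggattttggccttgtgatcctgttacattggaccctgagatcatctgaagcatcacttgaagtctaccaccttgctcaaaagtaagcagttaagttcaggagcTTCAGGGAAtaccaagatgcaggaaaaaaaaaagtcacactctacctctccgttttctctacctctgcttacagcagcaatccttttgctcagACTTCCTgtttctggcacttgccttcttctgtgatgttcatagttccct
Of the 8 genes, 7 had a promoter in that table, Il2rb being named only. Both strands were searched. The GAS element, which STAT proteins bind, was searched as TTCNNNGAA, and the core of the Ets motif as the letters ACTTCCT. NF-kB, Runx, forkhead and TATA box motifs were searched as well. Il2ra held 1 NF-kB match, 201 to 192 bases before the start, and 1 Ets match, 35 to 29 bases before it. Il7r held 1 GAS match, 142 to 134 bases before the start, and 1 Ets match, 49 to 43 bases before it. Among 32817 promoters of this length, 7.01% held the GAS letters, 17.6% those of NF-kB and 7.69% those of Ets. No matches overlapped one another in these 2 windows. A match is a description of the letters only.

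Il2rb (ENSMUSG00000068227; GRCm38 chr15:78479256-78495271, minus strand) encodes CD122, the signalling chain that IL-2 and IL-15 share. Its levels ran with those of Il2ra. It lay at 306, 384 and 322 CPM in SP/naive, 255, 373 and 311 CPM in SP/CD127lo and 345, 318 and 381 CPM in SP/CD127hi Tregs, which overlapped. Graft Tregs had 245, 170.4 and 173 CPM, below each library of these 3 subsets. CD4+Foxp3- T cells had 33.5, 37.1 and 16.8 CPM in naive and 52.0, 95.2 and 64.9 CPM in tolerant mice, which did not overlap.

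CD45+CD4- cells had more Il2rb than CD4+Foxp3- T cells in naive mice, with 111, 227 and 110 CPM, and 70.7, 109 and 97.4 CPM in tolerant mice, where it overlapped that of CD4+Foxp3- T cells. In the DLN, Il2rb was at 274, 395 and 290 CPM in naive, 415, 249 and 259 CPM in CD127lo and 197, 63.0 and 330 CPM in CD127hi Tregs. The DLN/CD127hi libraries spread most, and overlapped both other DLN subsets.

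Il2rg (ENSMUSG00000031304; GRCm38 chrX:101264378-101268255, minus strand) encodes CD132, the common gamma chain. It varied 4.01-fold between its lowest and highest subset means, with no pair of neighbours in the order of the 11 subsets free of overlap. SP/tolerant CD4+ T cells were highest with 1177, 677 and 925 CPM, and naive ones had 982, 417 and 672 CPM. CD45+CD4- cells were lowest, with 342, 216 and 204 CPM in naive and 241, 255 and 198 CPM in tolerant mice. Graft Tregs had 593, 693 and 587 CPM of Il2rg and SP/CD127lo Tregs 696, 559 and 595 CPM. These 2 subsets overlapped, and every library of either was above the libraries of SP/naive Tregs (382, 255 and 446 CPM) and of SP/CD127hi Tregs (541, 332 and 263 CPM).

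DLN Tregs had Il2rg at 723, 605 and 907 CPM in naive, 629, 392 and 1236 CPM in CD127lo and 411, 488 and 914 CPM in CD127hi subsets, all overlapping. Il2rg shares 728 exonic bases with Gm20489 on the same strand, which had 12 read pairs in 1 graft library and 0 in the other 32.

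**Figure D2:**
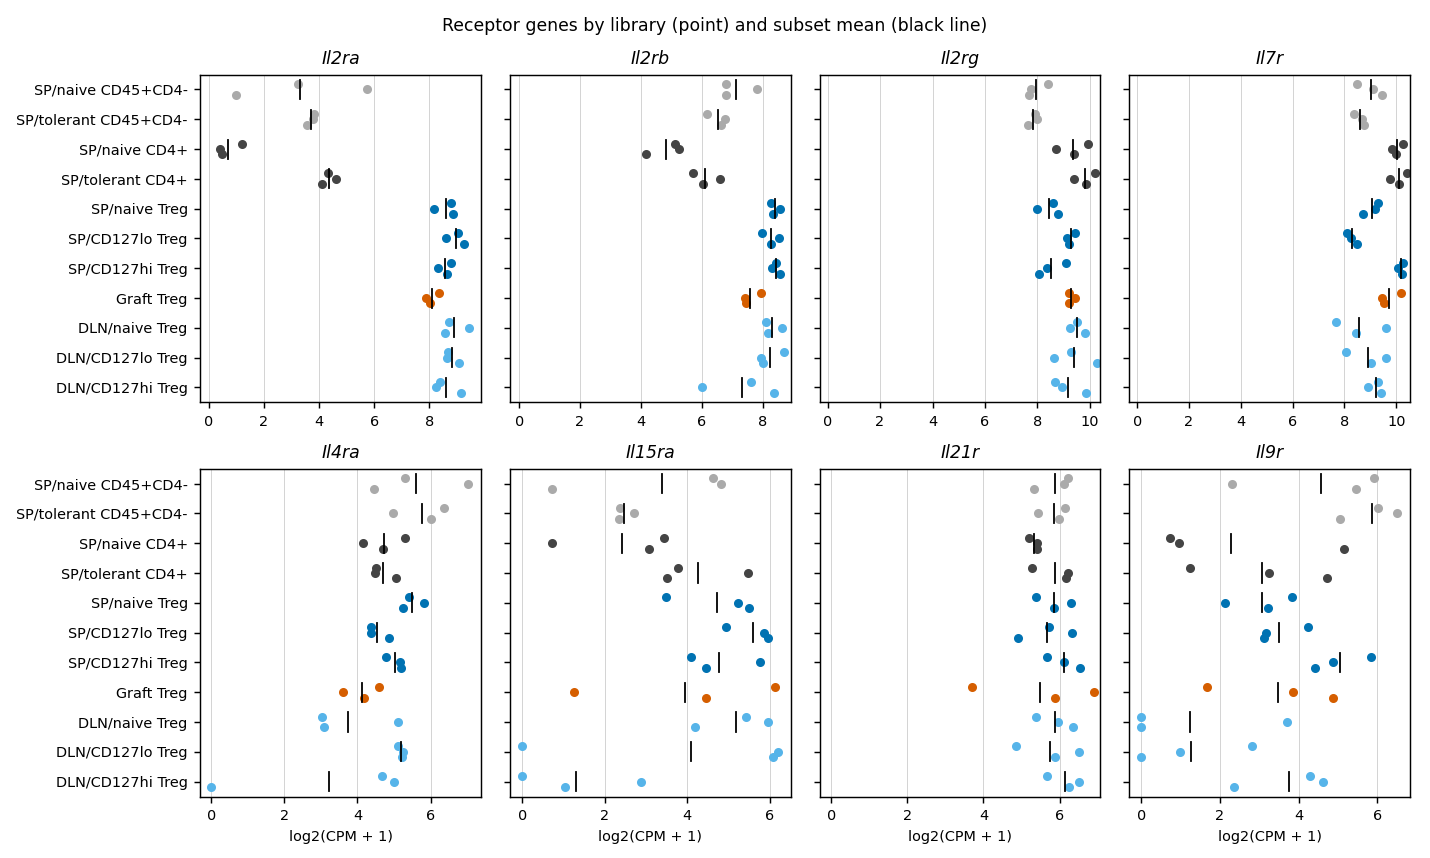
Level of each of the 8 genes, as log2(CPM + 1) on the horizontal axes, in the 33 libraries (points) of 11 subsets (rows), with the mean of the 3 log2 values as a black line. Il2ra in Tregs (237 to 686 CPM) lies apart from all other cells (0.32 to 52.8 CPM), while Il21r overlaps in nearly all subsets.

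The other 4 receptor genes were low, and Il15ra and Il9r were the most uneven between libraries of a subset. Il4ra (ENSMUSG00000030748; GRCm38 chr7:125552120-125579474, plus strand), which binds IL-4 with the common chain and IL-13 with the product of Il13ra1, was at 41.6, 55.1 and 36.9 CPM in SP/naive Tregs. It was at 26.5, 34.6 and 35.3 CPM in SP/CD127hi, 19.5, 19.6 and 27.8 CPM in SP/CD127lo and 23, 11.3 and 17 CPM in graft Tregs. The naive libraries were above all libraries of these 3 tolerant subsets, and the graft libraries were below all SP/CD127hi libraries.

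CD4+Foxp3- T cells had 38.7, 16.8 and 25.1 CPM of Il4ra in naive and 21.9, 21.4 and 32.4 CPM in tolerant mice. CD45+CD4- cells had 38.8, 130 and 20.9 CPM in naive and 80.9, 30.2 and 63.1 CPM in tolerant mice, and the DLN libraries lay between 0 and 36.8 CPM. Neither pair parted tolerant from naive mice. Il4ra shares 571 exonic bases with the antisense gene Gm44876, and counting over both strands cannot separate them.

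Il15ra (ENSMUSG00000023206; GRCm38 chr2:11705290-11734317, plus strand) binds IL-15 and is known for presenting it to neighbouring cells. It starts 12096 bases beyond the end of Il2ra. It was at 10.2, 36.5 and 43.9 CPM in SP/naive, 29.7, 57.4 and 61.6 CPM in SP/CD127lo and 16.1, 53.3 and 20.8 CPM in SP/CD127hi Tregs. Graft Tregs had 68.5, 1.37 and 20.9 CPM, a spread that covered the range of the spleen subsets. DLN/CD127hi Tregs were lowest of all subsets with 0, 6.30 and 1.04 CPM, against 41.9, 61.0 and 17.4 CPM in DLN/naive and 0, 72.7 and 67.1 CPM in DLN/CD127lo Tregs. In the 12 other libraries it lay between 0.63 and 43.4 CPM.

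Il21r (ENSMUSG00000030745; GRCm38 chr7:125603429-125633570, plus strand), the private chain for IL-21, starts 23954 bases beyond the end of Il4ra. It was the most even of the 8 genes between subsets, with means from 39.4 ± 3.4 CPM in SP/naive CD4+ T cells to 71.4 ± 20.3 CPM in DLN/CD127hi Tregs (SD, n = 3). Graft Tregs held both its lowest and its highest library, with 11.9, 120 and 57.8 CPM.

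Il9r (ENSMUSG00000020279; GRCm38 chr11:32187541-32200279, minus strand), the private chain for IL-9, was highest in CD45+CD4- cells of tolerant mice, with 64.1, 89.9 and 31.9 CPM, and was at 59.6, 3.91 and 43.1 CPM in those of naive mice. SP/CD127hi Tregs had 56.3, 28.2 and 20.3 CPM, above every library of SP/CD127lo Tregs (17.8, 8.05 and 7.62 CPM) and of SP/naive Tregs (13.2, 3.38 and 8.33 CPM). Graft Tregs had 2.17, 13.4 and 28.3 CPM, and the DLN libraries lay between 0 and 23.6 CPM. Over the 11 subsets, the median coefficient of variation within a subset was 80.5% for Il9r and 80.0% for Il15ra, against 19.8% for Il7r and 21.8% for Il2ra.

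Tregs were compared with CD4+Foxp3- T cells from the spleens of naive or of tolerant mice to ask which receptor genes go with the regulatory lineage. The genes of the IL-2 receptor, Il2ra and Il2rb, were higher in Tregs in each of the 3 spleen comparisons, and Il2rg was not called. Of the 8 genes, 2 were called between SP/naive Tregs and SP/naive CD4+ T cells, both higher in Tregs, where 0.264% of all genes were called. Il2ra was higher by 9.10 ± 0.76 on the log2 scale (SE, adjusted p = 4.55e-22, edgeR's quasi-likelihood test), and Il2rb by 3.53 ± 0.58 (SE, adjusted p = 7.84e-06). The first value rests on 6 read pairs in the naive CD4+ libraries against 4301 in the Tregs, a ratio of CPM of 595 with an exact 95% interval from 273 to 1623 for counting error only. Without SP/naive CD4+ replicate 1, which held 4 of those 6 read pairs, the difference was 9.95, and it was 8.76 to 9.30 without any other library. Il7r and Il15ra did not overlap either and were not called, with differences of -0.96 ± 0.36 (SE, adjusted p = 0.461) and 2.33 ± 1.32 (SE, adjusted p = 0.770).

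In tolerant mice, SP/CD127lo Tregs differed from SP/tolerant CD4+ T cells in 3 of the 8 genes, where 0.284% of all genes were called. Il2ra was higher by 4.70 ± 0.60 on the log2 scale (SE, adjusted p = 4.66e-10) and Il2rb by 2.14 ± 0.55 (SE, adjusted p = 0.0402), while Il7r was lower, with a difference of -1.84 ± 0.37 (SE, adjusted p = 0.000836). This last difference uses a subset gated for low CD127. Il2rb lost its call when any 1 of the 6 libraries was left out, with adjusted p from 0.0600 to 0.365, and both Il2rb and Il7r lost it with edgeR's likelihood ratio test (adjusted p = 0.166 and 0.198).

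SP/CD127hi Tregs differed from the same CD4+ T cells in 2 of the 8 genes, where 0.324% of all genes were called. Il2ra was higher by 4.30 ± 0.59 on the log2 scale (SE, adjusted p = 2.02e-08) and Il2rb by 2.30 ± 0.55 (SE, adjusted p = 0.0186). Il7r differed by 0.08 ± 0.36 (SE, adjusted p = 1), as the SP/CD127hi libraries lay within the range of CD4+Foxp3- T cells. Il2rg was lower in each SP/CD127hi library than in each CD4+ library, with a difference of -1.29 ± 0.39 (SE, adjusted p = 0.158) that passed the threshold with DESeq2 (adjusted p = 0.0362), with only the compared libraries (adjusted p = 0.0302) and with bias-adjusted deviances, an alternative chosen after seeing the data (adjusted p = 0.0400). The Il2rb call was lost without SP/tolerant CD4+ replicate 1 or 3 (adjusted p = 0.253 and 0.183) and without SP/CD127hi replicate 1 or 3 (adjusted p = 0.0544 and 0.0979), and also with the likelihood ratio test (adjusted p = 0.0969).

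The comparisons with SP/tolerant CD4+ T cells share those 3 libraries. In the 3 comparisons of Tregs with CD4+Foxp3- T cells 4, 3 and 3 of the 8 genes did not overlap, where 10%, 11.3% and 13.2% of all genes had no overlap. In each of the 3 comparisons, Lyz2, a myeloid gene, was also higher in Tregs, by 7.99, 4.84 and 5.11 on the log2 scale in the order given above. The summed CPM of 7 myeloid genes was 1.57 to 3.94 in SP/naive CD4+ T cells and 25.8 to 103 in SP/naive Tregs, without overlap. In SP/tolerant CD4+ T cells it was 16.2 to 29.4, below SP/CD127hi Tregs (121 to 247) and overlapping SP/CD127lo Tregs (7.30 to 299). Itgam was at 0 in SP/naive and SP/CD127lo Tregs. The NK cell list summed to 0.551 to 1.35 CPM in SP/naive Tregs against 19.7 to 51.9 CPM in SP/naive CD4+ T cells. Against SP/tolerant CD4+ T cells, which had 16.2 to 72.1 CPM of the dendritic cell list, 4455 to 6568 CPM of the T cell list and 11.7 to 33.5 CPM of the CD8 genes, the first was at 0.586 to 2.83 CPM in SP/CD127lo Tregs and the other two at 3409 to 3821 and 0 to 10.4 CPM in SP/CD127hi Tregs, all without overlap. Hbb-bs, a red cell gene, was called as higher in both tolerant Treg subsets, at 0, 0.25 and 303 CPM in SP/CD127lo and 0.42, 0 and 464 CPM in SP/CD127hi Tregs against 0 in all 3 SP/tolerant CD4+ libraries. The B cell gene Cd79b was higher in the same comparisons by 3.96 and 3.32 on the log2 scale, and Ms4a1 in the second by 5.18, while Ebf1 was lower in SP/naive Tregs than in SP/naive CD4+ T cells, with a difference of -5.87. The part of such RNA in the receptor values was not tested.

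SP/naive CD4+ T cells and SP/naive CD45+CD4- cells differed in 3 of the 8 genes, where 1.04% of all genes were called. Il2rg was higher in CD4+ T cells by 1.44 ± 0.39 on the log2 scale (SE, adjusted p = 0.0312). Il2rb was lower, with a difference of -2.36 ± 0.55 (SE, adjusted p = 0.0056), and Il2ra was lower as well, with -4.85 ± 0.67 (SE, adjusted p = 4.97e-09). Il2rb, Il2rg and Il7r, 3 of the 8 genes, did not overlap, where 12.9% of all genes had no overlap. For Il2ra the groups overlapped, and SP/naive CD45+CD4- replicate 2 held 162 of the 193 read pairs on that side. Without it, the Il2ra difference was -2.79 (adjusted p = 0.00553), Il2rb had an adjusted p of 0.0916 and Il2rg one of 0.207. Il2rb also lost its call without SP/naive CD4+ replicate 3 (adjusted p = 0.130), and Il2rg lost it without SP/naive CD45+CD4- replicate 3 (adjusted p = 0.177) or SP/naive CD4+ replicate 1 or 3 (adjusted p = 0.311 and 0.0834). The Il2rg call was also lost with the likelihood ratio test (adjusted p = 0.285), with RLE size factors (adjusted p = 0.0620) and with only the compared libraries (adjusted p = 0.0603). In that last fit the Il2ra call was lost too (-4.88, adjusted p = 0.182). Il7r, higher in CD4+ T cells by 0.98 (adjusted p = 0.218), was called with the same sequencer only (adjusted p = 0.0483). Without SP/naive CD4+ replicate 1 the Il2ra difference was -5.69, and without SP/naive CD45+CD4- replicate 3 it was -5.46.

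Tolerant and naive CD4+Foxp3- T cells were compared to ask how conventional T cells differ in tolerance. Il2ra was the only member called, in a comparison where 0.107% of all genes were called. It was higher in tolerant mice by 4.76 ± 0.67 on the log2 scale (SE, adjusted p = 1.20e-07), with 241 read pairs against 6, a ratio of CPM of 28.6 with an exact 95% interval from 13 to 78.8 for counting error only. Without SP/naive CD4+ replicate 1 the difference was 5.59, and without any other library it was 4.42 to 4.88. With only these 6 libraries in the model the adjusted p was 0.453. Foxp3 was at 0.46, 1.5 and 5.15 CPM in tolerant and 8.20, 0.32 and 0.39 CPM in naive CD4+ T cells, which overlapped. Ebf1 and Ms4a1 were lower in tolerant CD4+ T cells, with differences of -5.23 and -4.13 on the log2 scale, as was Hbb-bs, at 0 against 177, 0 and 0 CPM. The 7 myeloid genes summed to 16.2 to 29.4 CPM there against 1.57 to 3.94 CPM in naive ones, without overlap, while the NK cell list summed to 6.18 to 19.1 CPM against 19.7 to 51.9 CPM. The part of this RNA in the receptor values was not tested. Il2rb did not overlap and was higher by 1.28 ± 0.54, without a call (SE, adjusted p = 0.692). In all, 3 of the 8 genes did not overlap, where 9.63% of all genes had no overlap. For comparison, the tolerant and naive CD45+CD4- cells had 0 of the 8 genes called (0.0355% of all genes), with 0 at an unadjusted p under 0.05 and 0 with DESeq2. Of the 8 genes, 1, Il2rb, did not overlap there, where 6.79% of all genes had no overlap. The make-up of these libraries moved as well, without overlap, with 5019 to 6637 CPM of the B cell list in tolerant against 2980 to 4719 CPM in naive mice and 72 to 111 against 11.6 to 55.4 CPM of the dendritic cell list. The T cell list was at 551 to 757 against 821 to 1994 CPM and the CD8 genes at 225 to 325 against 370 to 760 CPM, and Ikzf2, a Treg gene, was lower, with a difference of -1.27 on the log2 scale (adjusted p = 0.000203). The part of this in the receptor values was not tested.

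**Figure D3:**
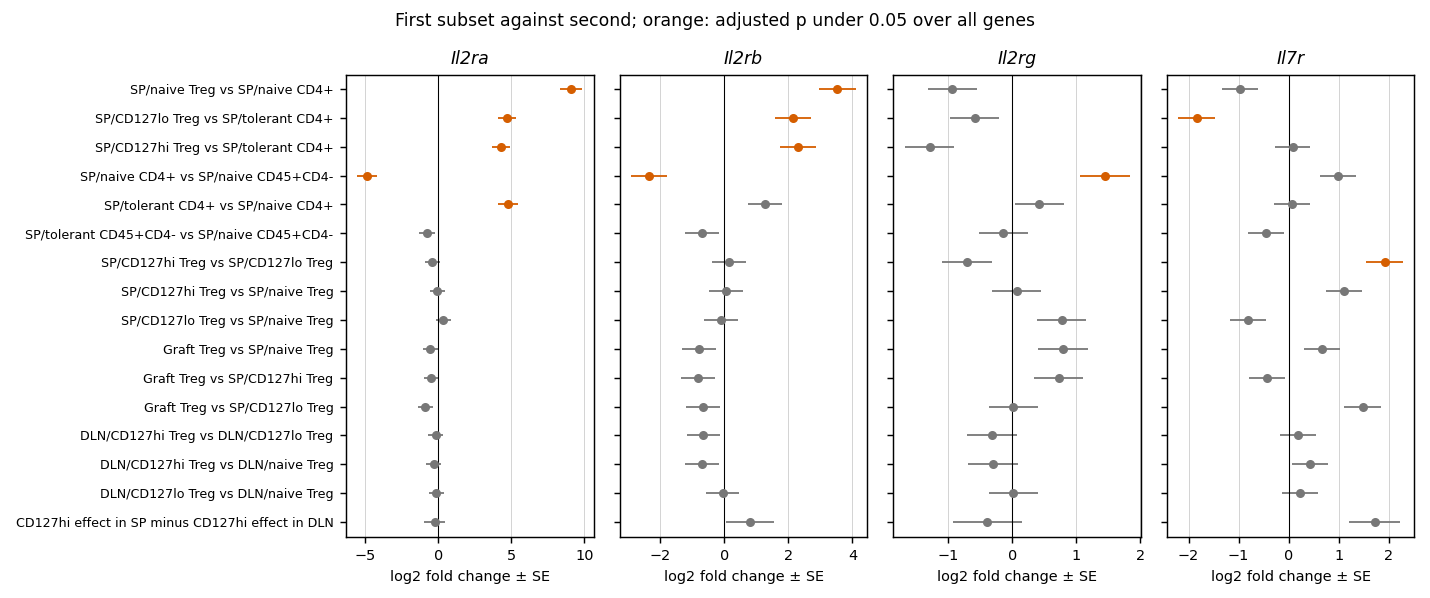
Log2 fold change of the first subset against the second ± SE (horizontal axes) for Il2ra, Il2rb, Il2rg and Il7r in the 15 comparisons and the interaction (rows), from edgeR's quasi-likelihood fit of all 33 libraries. Orange points have an adjusted p under 0.05: Il2ra and Il2rb are orange in the 3 comparisons of spleen Tregs with CD4+Foxp3- T cells, and Il7r alone is orange between SP/CD127hi and SP/CD127lo Tregs.

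Within the spleen, CD127hi and CD127lo Tregs of tolerant mice differed in 1 of the 8 genes, where 0.0907% of all genes were called. This was Il7r, the gene of the sorted protein, which was higher in CD127hi Tregs by 1.92 ± 0.37 on the log2 scale (SE, adjusted p = 0.00163) and so checks the sort. The call was lost with the likelihood ratio test (adjusted p = 0.296) and with a filter of 10 counts in 3 libraries (adjusted p = 0.248). Besides Il7r, Il2rg and Il9r did not overlap. Il2rg was lower in CD127hi Tregs, with a difference of -0.70 ± 0.38 (SE, adjusted p = 0.778), and Il9r higher, with 1.64 ± 1.40 (SE, adjusted p = 0.778). That is 3 of 8 genes without overlap, where 10.6% of all genes had none. Ms4a1, a B cell gene, was higher in CD127hi Tregs by 7.56 on the log2 scale, at 64.1, 0 and 11 CPM against 0, 0.25 and 0 CPM. The T cell genes Cd3g and Cd3d were lower in CD127hi Tregs, with differences of -1.43 and -1.36 (adjusted p = 0.0107 and 0.00834), and the sum of the T cell marker list was 3409 to 3821 CPM against 6393 to 9849 CPM in CD127lo Tregs. The CD8 genes were also lower, at 0 to 10.4 against 14.1 to 26.3 CPM, and the dendritic cell list higher, at 9.34 to 59.1 against 0.586 to 2.83 CPM, both without overlap. The part of these in the receptor values was not tested.

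Both tolerant spleen subsets were compared with SP/naive Tregs, which those 2 comparisons share. SP/CD127hi Tregs had 0 of 8 genes called (0.0197% of all genes), 1 gene, Il7r, at an unadjusted p under 0.05, and 0 with DESeq2. Il7r was at 1172 ± 80.0 CPM against 543 ± 108 CPM (SD, n = 3), a difference of 1.11 ± 0.36 on the log2 scale (SE, adjusted p = 0.628) without overlap. SP/CD127lo Tregs had 0 of 8 genes called (0.071% of all genes), 2 genes at an unadjusted p under 0.05, Il2rg at 0.77 ± 0.39 (SE, adjusted p = 0.859) and Il7r at -0.81 ± 0.36 (SE, adjusted p = 0.779), and 0 with DESeq2. Naive Tregs, which were not gated on CD127, thus lay between the 2 gated subsets in Il7r. The B cell gene Cd79a was called as higher in SP/CD127hi than in SP/naive Tregs, at 15.5, 2.75 and 12.2 CPM against 0, and the 7 myeloid genes summed to 121 to 247 CPM against 25.8 to 103 CPM, without overlap, and the CD8 genes to 0 to 10.4 against 11.1 to 31.4 CPM. In SP/CD127lo Tregs, Trac, a T cell receptor gene, was higher than in naive Tregs by 1.74 on the log2 scale (adjusted p = 0.00607) and Ms4a1 lower, with a difference of -4.82 (adjusted p = 0.00779). The T cell marker list summed to 6393 to 9849 CPM in SP/CD127lo against 2768 to 5518 CPM in SP/naive Tregs, the NK cell list to 5.03 to 22 against 0.551 to 1.35 CPM and the dendritic cell list to 0.586 to 2.83 against 18.4 to 37.6 CPM, each without overlap. The part of these in the receptor values was not tested. In each of these comparisons 3 of the 8 genes did not overlap, where 6.77% and 8.97% of all genes had no overlap.

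Graft Tregs were compared with spleen Tregs to ask how Tregs in the tolerated graft differ. None of the 8 genes was called in the 3 comparisons, which share the graft libraries. Against SP/naive Tregs, 0.13% of all genes were called, 1 member, Il2rg, had an unadjusted p under 0.05, and DESeq2 called 0. Against SP/CD127hi Tregs, 0.103% of all genes were called, with 0 members at an unadjusted p under 0.05 and 0 with DESeq2. Against SP/CD127lo Tregs, 0.0829% of all genes were called, and Il7r alone had an unadjusted p under 0.05.

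That last comparison sets graft Tregs, which were not gated on CD127, against a subset gated for low CD127. Il7r was higher there in graft Tregs by 1.48 ± 0.37 on the log2 scale (SE, adjusted p = 0.0685). It passed the threshold with DESeq2 (adjusted p = 0.0463), without the filter on low counts (0.0411), with the replicate block (0.0190), with the same sequencer only (0.0201), with bias-adjusted deviances (0.0171) and without graft replicate 2 (0.0496). It did not pass in the other 4 alternative fits (adjusted p from 0.0545 to 0.401) or in the other 5 that left out a library (0.0674 to 0.323). Against SP/naive Tregs, Il7r was higher by 0.67 ± 0.36 (SE, adjusted p = 0.686), and against SP/CD127hi Tregs it differed by -0.44 ± 0.36 (SE, adjusted p = 0.759). Il2rb was lower in the graft than in each of the 3 spleen subsets without overlap, by -0.78 ± 0.53, -0.83 ± 0.53 and -0.67 ± 0.53 on the log2 scale (SE, adjusted p = 0.793, 0.738 and 0.850) in the order above. Over the 8 genes, 4, 3 and 3 did not overlap, where 8.15%, 8.52% and 7.2% of all genes had no overlap.

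Graft libraries also held RNA of kidney tubules. Kap was at 114, 887 and 13.4 CPM in them and at 0 to 0.996 CPM in all other libraries, and 4 of 5 kidney epithelium genes were above the limit in at least 1 graft library. The B cell gene Ms4a1 was lower in graft than in SP/naive and SP/CD127hi Tregs, with differences of -4.78 and -7.52 on the log2 scale. Hbb-bs was lower than in SP/CD127hi Tregs, with a difference of -7.48. The Treg list, which includes Il2ra, summed to 8919 to 16668 CPM in graft Tregs. This was above SP/naive (5059 to 7515 CPM) and SP/CD127hi Tregs (5814 to 7232 CPM) and overlapped SP/CD127lo Tregs (6805 to 12683 CPM). Ikzf2, a Treg gene, was called as higher in graft than in SP/naive and SP/CD127hi Tregs, by 1.08 and 0.95 on the log2 scale. The T cell list summed to 4982 to 7694 CPM in graft against 3409 to 3821 CPM in SP/CD127hi Tregs, and the dendritic cell list to 20.6 to 26.5 CPM against 0.586 to 2.83 CPM in SP/CD127lo Tregs, both without overlap. The part of this RNA in the receptor values was not tested.

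The balance of Il2ra to Il7r, taken per kilobase within each library, was similar in graft Tregs, at 0.229 to 0.290, and in SP/CD127hi Tregs, at 0.241 to 0.293. It was 0.401 to 0.903 in SP/naive Tregs and 1.05 to 1.60 in SP/CD127lo Tregs, so that these 2 subsets lay above both. In the DLN it was 0.432 to 0.689 in CD127hi, 0.418 to 1.27 in CD127lo and 0.711 to 1.69 in naive Tregs, and the first of these overlapped CD127lo but not naive Tregs. In CD4+Foxp3- T cells the ratio was 0.000282 to 0.0221. Since 4 of these subsets were gated on CD127, the ratios are a description without a test.

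**Figure D4:**
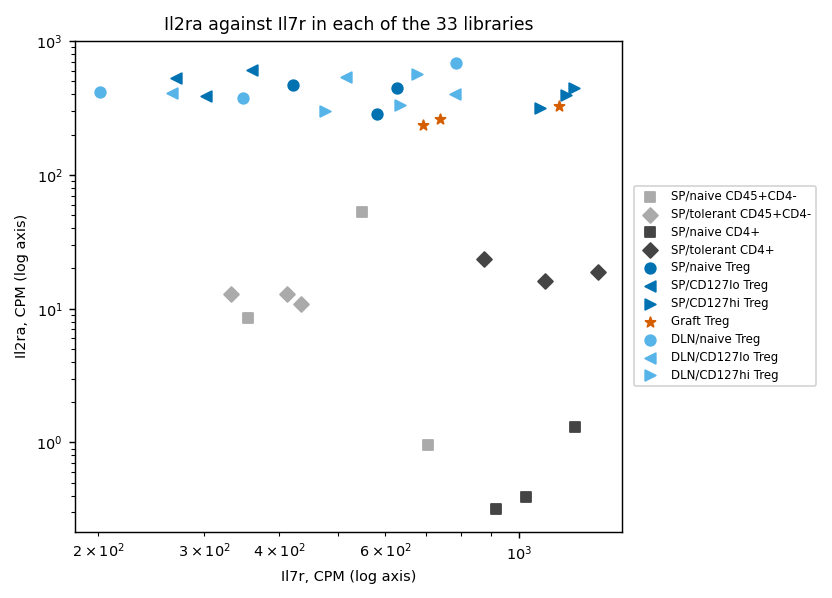
Level of Il2ra (vertical axis, CPM, log scale) against that of Il7r (horizontal axis, CPM, log scale) in the 33 libraries, with colour and shape marking the 11 subsets. All Tregs lie at 237 CPM of Il2ra or above and spread from 202 to 1236 CPM of Il7r, and the graft Tregs have a ratio per kilobase of 0.229 to 0.290.

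In the DLN, 0 of the 8 genes were called between CD127hi and CD127lo Tregs (0.418% of all genes). Il7r, the gene of the sorted protein, differed by 0.19 ± 0.36 on the log2 scale (SE, adjusted p = 0.972), so the CD127 gate was not seen in this transcript. Without DLN/CD127lo replicate 1 the sign turned, to -0.13, and without DLN/CD127lo replicate 2 the difference was 0.69. That second library had the fewest read pairs on genes of all libraries, 844039, and the largest share on no feature, 60.4%. The difference between the CD127hi effect in the spleen and that in the DLN was 1.72 ± 0.51 for Il7r (SE, adjusted p = 0.181 for the interaction, where 0.118% of all genes and 0 members were called), with 1 member at an unadjusted p under 0.05 and 0 called by DESeq2. It passed the threshold without DLN/CD127lo replicate 1 (2.02, adjusted p = 0.0377).

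Il15ra was the member that differed most in the DLN. It was lower in CD127hi than in CD127lo Tregs, with a difference of -4.18 ± 1.48 on the log2 scale (SE, adjusted p = 0.236), and than in naive Tregs, with -3.96 ± 1.46 (SE, adjusted p = 0.229). DESeq2 called both (adjusted p = 0.0281 and 0.0455). Without DLN/CD127hi replicate 2 the differences were -6.43 and -6.16, and without any other library -4.76 to -3.61 and -4.32 to -3.40. That library held 8 of the 9 read pairs of the CD127hi subset, against 155 and 174 in the other two subsets, and the ratios of CPM were 13.8 (exact 95% interval 7.10 to 30.8) and 14.2 (7.30 to 31.5) for counting error only. The first pair of subsets overlapped, as a CD127lo library was also at 0, and the second did not. DLN/CD127hi Tregs had 270 to 564 CPM of the 6 B cell genes, against 77.9 to 230 CPM in CD127lo and 11.2 to 55.4 CPM in naive DLN Tregs. The 7 myeloid genes summed to 576, 849 and 758 CPM in CD127hi, 117, 718 and 102 CPM in CD127lo and 341, 2.80 and 428 CPM in naive DLN Tregs, so that CD127hi overlapped CD127lo but not naive Tregs. The summed CPM of the CD8 T cell genes Cd8a and Cd8b1 was 186, 1.58 and 120 in CD127hi, 10.4, 1.99 and 0 in CD127lo and 0, 0 and 70.1 in naive DLN Tregs. Cd8a was called as higher than in CD127lo Tregs, by 6.63 on the log2 scale, and Cd8b1 as higher than in naive Tregs, at 41.9, 0.79 and 119 CPM against 0. The B cell genes Cd79b and Ms4a1 were also called as higher in both tolerant DLN subsets than in naive ones, by 7.70 and 4.06 in CD127hi and 5.36 and 5.28 on the log2 scale in CD127lo Tregs. The part of this RNA in the receptor values was not tested.

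Against DLN/naive Tregs, 0 members were called in DLN/CD127hi Tregs (0.951% of all genes) and 0 in DLN/CD127lo Tregs (0.355% of all genes), with 1 member, Il15ra, and 0 members at an unadjusted p under 0.05. DESeq2 called 1 and 0. Of the 8 genes, 1, Il4ra, did not overlap between DLN/CD127hi and DLN/CD127lo Tregs (5.37% of all genes), 1, Il15ra, between DLN/CD127hi and DLN/naive Tregs (7.68%) and 0 between DLN/CD127lo and DLN/naive Tregs (6.34%). These comparisons share the naive libraries and also differ in the sex of the mice by the study's account, which DLN/naive replicate 3 went against, with Xist lower in both by -7.53 and -7.54 on the log2 scale. Across all genes the median difference was 0.40 and 0.58 on the log2 scale, so that member differences near 0 lay below the middle of all genes.

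The rest of the pathway was followed in 22 genes, of which 21 could be tested, as Il9 had 0 read pairs in all 33 libraries. Of 15 comparisons and the interaction, 2 had a gene called, 1 gene each and both higher, where 0.264% and 0.324% of all genes were called. Cish, an inhibitor of STAT5 signalling that STAT5 itself induces, was at 38.3, 27.1 and 69.2 CPM in SP/naive Tregs against 0, 0 and 2.35 CPM in SP/naive CD4+ T cells, without overlap. The difference was 5.83 ± 1.37 on the log2 scale (SE, adjusted p = 0.0157), and the call was lost without SP/naive CD4+ replicate 1 and without SP/naive Treg replicate 3. Pim1, a kinase known as a target of STAT5, was at 216, 148 and 282 CPM in SP/CD127hi Tregs against 13.4, 31.1 and 15.7 CPM in SP/tolerant CD4+ T cells, without overlap, a difference of 3.42 ± 0.82 (SE, adjusted p = 0.0185). The Pim1 call was lost without SP/tolerant CD4+ replicate 1, 2 or 3 and without SP/CD127hi replicate 1 or 3, in 5 of the 6 fits that left out a library. In the first comparison, 2 pathway genes were called with DESeq2, 2 with the likelihood ratio test and 3 with bias-adjusted deviances, and in the second 2, 1 and 3. The median difference of the 21 genes was 0.83 in the first comparison and 0.31 in the second, where that of all genes was -0.09 and 0.

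Both genes varied further in the subsets. Cish was at 20.1, 19.9 and 15.5 CPM in SP/tolerant CD4+ T cells, above each naive CD4+ library, and at 100.2, 50.5 and 107 CPM in graft Tregs. Pim1 was at 77.1, 94.9 and 85.0 CPM in SP/CD127lo Tregs, below each SP/CD127hi library. These differences were not called by edgeR's quasi-likelihood test, while DESeq2 called that of Cish between tolerant and naive CD4+ T cells (adjusted p = 0.00362). In the 14 other comparisons, interaction included, 0 pathway genes were called by edgeR's quasi-likelihood test, with 1 to 5 genes at an unadjusted p under 0.05 in each and 0 to 4 called by DESeq2.

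**Figure D5:**
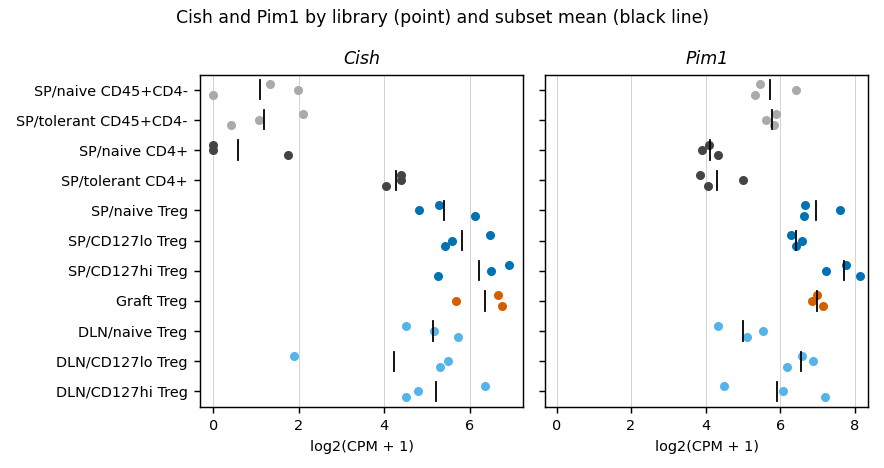
Level of Cish and Pim1, as log2(CPM + 1) on the horizontal axes, in the 33 libraries (points) of 11 subsets (rows), with the mean of the 3 log2 values as a black line. Cish is at 0, 0 and 2.35 CPM in SP/naive CD4+ T cells and at 27.1 to 69.2 CPM in SP/naive Tregs, and Pim1 has its highest mean in SP/CD127hi Tregs (148 to 282 CPM).

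The kinases and STATs of the pathway were measured in nearly all libraries. Jak1, Stat3, Stat5a, Stat5b and Stat6 were above 3 read pairs in all 33 libraries, and Jak3 in 19 of the 21 Treg libraries and all 12 others. Of the ligands, Il4 and Il21 in CD4+Foxp3- T cells were above 3 read pairs in 6 of 6 libraries and Il2 in 5 of 6, with medians of 26.9, 26.6 and 21.2 CPM. Among Tregs, which include the 9 shallower DLN libraries, they were above it in 10, 5 and 13 of 21 libraries, with medians of 1.0, 0.21 and 2.03 CPM. Il7 and Il15 were above it in 1 and 2 of the 21 Treg libraries, in 1 and 0 of the 6 CD4+Foxp3- libraries and in 0 and 2 of the 6 CD45+CD4- libraries. The partner chains differed from each other, with Crlf2 above 3 read pairs in 18 of 21 Treg libraries and Il13ra1 in 4 of 21. By edgeR's quasi-likelihood test, no difference in these ligands or chains was called.

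Over the 24 spleen and graft libraries, the genes most like each member in log2 CPM (Pearson's r, a description across libraries of 8 subsets that differ in cell type and share their preparation) were as follows. Il2ra was most like Penk (0.92), the EGFP transgene (0.91) and D830030K20Rik (0.91). Il2rb was most like Il2ra (0.90), Itgae (0.89) and Pim1 (0.89), so that a second member and a pathway gene stood among its nearest 3. Il2rg was most like Gimap4 (0.91), Gimap6 (0.90) and Scp2 (0.89). Il7r had no gene as near, with Pmel (0.75), Dock2 (0.73) and Ncor1 (0.73).

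The low members also lacked near neighbours of a high correlation. Among the genes nearest to Il4ra were Ctcf (0.74) and Ddx17 (0.74), and Il21r was most like Tmem161a (0.80), Rpap1 (0.78) and Plrg1 (0.78). Il15ra was most like Tagap (0.76), Hivep2 (0.70) and Itgb2 (0.67), and Il9r most like Cmpk2 (0.75), N4bp2 (0.72) and Mfsd14b (0.72). Between members, r was 0.90 for Il2ra with Il2rb and 0.66 for Il2ra with its neighbour Il15ra, and 0.13 for the neighbours Il4ra and Il21r. It was -0.20 for Il2ra with Il7r and -0.58 for Il2rg with Il4ra.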

How the data were processed

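RNA-Seq libraries (SMART-Seq v4, 1000 sorted cells each) were made from 11 subsets with 3 replicates, grouped by the labels. The authors used Trim Galore and then STAR (mm10 plus EGFP) and deposited raw gene counts, 1 file per library, not normalized. HTSeq is named in their methods, but the columns are those of STAR's own counting, and the unstranded column was used. Reads on no feature (16.6 to 60.4% of uniquely aligned pairs) were left out. Counts were analysed with edgeR 4.0.16 in R 4.3.3: TMM factors, genes reaching 1 CPM in any library (25347 of 31054), 1 mean per subset over all 33 libraries, the quasi-likelihood test, and Benjamini-Hochberg adjustment over all genes tested, with a threshold of 0.05. SE was derived from the fold change and its F statistic. CPM use totals over tested genes times the TMM factors, and levels between genes are per kb of exon (GENCODE vM21). The script was tested on simulated data.

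The labels and methods do not give which mice formed which pool. The tolerant mice came from 2 transplant experiments, and only 3 naive mice per tissue are described for 3 pools each, so naive libraries may share mice and p-values then measure the spread between libraries. For single genes an exact permutation test of 3 against 3 cannot go below p = 0.1. No replicate pair agreed within sampling noise (chi-square per gene at least 26.0).

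Alternatives were the likelihood ratio test, DESeq2 1.42.0, RLE factors, no filter, a filter of 10 counts in 3 libraries, only the compared libraries, only libraries of the same sequencer, a replicate block, each library left out and, chosen after seeing the data, quasi-likelihood with bias-adjusted deviances. The members and gene lists were chosen with earlier results of these data known. All 8 members are described, and other genes are named where they were called in the pathway list, where a marker moved with a result, or as the 3 most similar genes of each member among those with a mean of at least 10 CPM in any of the 8 spleen and graft subsets. For Il4ra, 1 of the 3 is not reported here. The kinases, ligands and partner chains named for their detection alone were chosen after their values were seen.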

Additional observations from a re-analysis of the deposited data

How the results depend on the processing

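Of 188 member fold changes refitted with another tool, normalization, filter, sample set or block, 167 kept direction and side of the threshold, 10 lost the call, 11 gained it and 0 turned. The likelihood ratio test called 1 member in both comparisons of tolerant spleen Tregs with CD4+ T cells and 0 between SP/CD127hi and SP/CD127lo Tregs, where the filter of 10 counts in 3 libraries also called 0. With only the compared libraries, 1 member was called between naive CD4+ and CD45+CD4- cells, where 4 were with the same sequencer only, and 0 between tolerant and naive CD4+ T cells. Between graft and SP/CD127lo Tregs, 1 member, Il7r, was called with DESeq2, without a filter, with the same sequencer only and with bias-adjusted deviances. DESeq2 called 1 member, Il15ra, in DLN/CD127hi against DLN/CD127lo and against DLN/naive Tregs. The cause of these changes was not tested. With a library left out, members called ranged from 1 to 2 for SP/CD127hi Tregs against CD4+ T cells, 1 to 3 for naive CD4+ against CD45+CD4- cells, and 0 to 1 for graft against SP/CD127lo Tregs and for the interaction. The Il7r difference between DLN subsets ranged from -0.13 without DLN/CD127lo replicate 1 to 0.69 without its replicate 2. Without TMM factors, 3 of 88 levels moved by more than 1 SD.

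The replicate numbers did not pair the samples: 0 of 45 same-numbered pairs had a correlation of deviations over 0.1 (-0.08 to 0.09), and 13 of 33 libraries were closest to their own number. The replicate block changed the member count only between graft and SP/CD127lo Tregs, to 1 (Il7r, 1.5, adjusted p = 0.0190).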
